A study of Mus musculus with 10 samples.

Results

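The 8 complement genes C1qa, C1qb, C1qc, C3, Cfb, Cfp, C3ar1 and C5ar1, of 32285 genes counted, were described in macrophages, T cells and tumor cells of SW1 tumors. SW1 is a mouse melanoma line, grown here under the skin of C3H/HeJ animals whose water held the sugar L-fuc (L-fucose) or not. The genes were chosen by name, with earlier results of these data known, and the cells by marker transcripts. Counts of members set beside all genes therefore describe the set and are not an independent test of it. Transcripts were counted by the tag (UMI) that marks each captured molecule, and a droplet's barcode stands for a cell. Barcodes with at least 500 genes and at most 10% mitochondrial UMIs were kept. The macrophage gate holds kept barcodes with at least 3 UMIs of Lyz2, the lysozyme gene of myeloid cells, and at least 1 of Ptprc, which encodes CD45. The T cell gate holds barcodes with at least 2 UMIs of the CD3 chain genes Cd3e, Cd3d and Cd3g together. It served as the background for transcripts that T cells should lack. The tumor gate holds barcodes with at least 1 UMI of Sox10, a neural crest transcription factor gene, and no Ptprc UMI.

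Complement is a cascade of plasma and cell-surface proteins that tags targets for uptake and recruits leukocytes. C1q, built from the A, B and C chains that C1qa, C1qb and C1qc encode, starts the classical pathway when it binds immune complexes or dying cells, and tissue macrophages are its main source. C3 is the component on which all activation routes meet. Factor B (Cfb) supplies the protease of the alternative pathway, and properdin (Cfp) stabilizes it. The receptors C3aR (C3ar1) and C5aR1 (C5ar1) read the small fragments released from C3 and C5 on myeloid cells.

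Female mice aged 4 to 6 weeks were injected in the right flank, and after 10 days, according to the labels, were given control or L-fuc water. The 5 gene expression libraries are day 0 (collected before treatment, labelled control water) and, at days 7 and 21 of treatment, a control and an L-fuc library each. Values listed for the 5 libraries follow this order, day 0 and then control before L-fuc at each day. Each is 1 pool of CD45+ sorted cells, so no mouse can be followed and there was no replicate of any condition. The labels give the L-fuc dose as 100 mM in one protocol and 100 nM in another, and 5 or 6 mice per arm. All libraries share the tumor line, the strain and the sex of the mice.

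The 3 C1q genes lie side by side on chromosome 4 of the mm10 (GRCm38) genome, C1qb at chr4:136880129-136886187, C1qc at chr4:136889804-136893065 and C1qa at chr4:136895917-136898803. C3 (chr17:57203970-57228136) and Cfb (chr17:34856374-34862518) are on chromosome 17. C3ar1 is at chr6:122847138-122856161, C5ar1 at chr7:16246743-16259540 and Cfp at chrX:20925454-20931555. All 8 genes are on the minus strand in GENCODE vM21, and no other counted gene overlaps them. Because the C1q chains are neighbours and were counted together in all gates, the sequence just upstream of C1qb and C1qc is shown, with that of C3 as a contrast. These promoters come from the RefSeq table on GRCm38.p6, which held 6 of the 8 members, and are written 5′ to 3′ on the minus strand. For C1qc the 151 bases nearest the RefSeq start lie in the GENCODE gene and were left out. Capitals mark the motifs found.
C1qb, chr4:136886201-136886450: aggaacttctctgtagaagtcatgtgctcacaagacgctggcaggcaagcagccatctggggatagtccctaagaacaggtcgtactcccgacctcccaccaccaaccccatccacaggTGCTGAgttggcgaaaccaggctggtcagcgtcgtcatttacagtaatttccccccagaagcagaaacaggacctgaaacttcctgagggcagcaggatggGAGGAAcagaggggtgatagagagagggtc
C1qc, chr4:136893066-136893164: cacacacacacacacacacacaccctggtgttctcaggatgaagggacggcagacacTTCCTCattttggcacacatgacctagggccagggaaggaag
C3, chr17:57228137-57228386: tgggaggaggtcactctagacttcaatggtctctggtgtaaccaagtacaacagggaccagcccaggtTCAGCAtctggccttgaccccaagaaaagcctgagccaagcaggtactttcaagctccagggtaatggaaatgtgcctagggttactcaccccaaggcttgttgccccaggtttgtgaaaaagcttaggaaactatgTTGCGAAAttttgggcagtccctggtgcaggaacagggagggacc
The motifs searched on both strands were GAGGAA (the core of sites for the macrophage factor PU.1), TGCTGA (a core of MAF sites) and TTGCNNAA (a C/EBP type), with the interferon response element, and none of the marked matches overlaps another. Of 32851 promoters of 250 bases, 23.3% held GAGGAA, 16.1% TGCTGA, 9.56% TTGCNNAA and 2.98% the interferon response element. C1qb held GAGGAA at 30 to 25 bases and TGCTGA at 131 to 126 bases before its start. C1qc held GAGGAA as its reverse complement TTCCTC at 193 to 188 bases. C3 held TGCTGA as its reverse complement TCAGCA at 182 to 177 bases and TTGCNNAA at 45 to 38 bases. The interferon response element was in none of these 3 windows. These matches describe letters and are not evidence of binding.

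The libraries differ widely in size, with 14439185 to 119047810 UMIs as deposited and 1182 to 17897 kept barcodes. The macrophage gate holds 264 to 949 barcodes per library, the T cell gate 50 to 1820 and the tumor gate 265 to 8996. The macrophage label fits its markers, whose summed level over 10 genes was 11760 to 19444 UMIs per 1000000 UMIs of the gate (CPM) in that gate, 2644 to 6753 in the T cell gate and 222 to 634 in the tumor gate. The sort for CD45+ notwithstanding, the tumor gate was filled in every library. Of the Schwann markers that the gate did not use, Erbb3 was at 104 to 152 CPM in it, against 3.29 to 35.9 in the macrophage gate. Of 5 pigment genes, Tyr had no UMI in either gate, Pmel, Dct and Mlana were at most at 2.62 CPM in the tumor gate, and Mitf was at 28.3 to 45.6 there and 27.4 to 40.0 in the macrophage gate. Barcodes that met both the macrophage and the T cell gate made up 26.8% of the macrophage gate at day 0, 28.6% in control day 7 and 24.5% in L-fuc day 7, against 2.0% and 3.8% at day 21. As a share of the T cell gate the same barcodes were 15.7%, 18.1%, 10.6%, 10.4% and 20%. Between 3.4% and 25.4% of tumor gate barcodes had a Lyz2 UMI. In all, 706 barcodes occurred in more than 1 library. Strict gates leave out barcodes with a UMI of genes that mark another gate, among them Sox10 and the CD3 genes for macrophages, Lyz2 and Sox10 for T cells, and Lyz2, Tyrobp, Fcer1g and the CD3 genes for the tumor gate. Values under strict gates are given beside the main ones.

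C1q transcripts were abundant in the macrophage gate and scarce in the tumor gate. C1qa stood at 6610.0 CPM in the macrophage gate at day 0, 4159 and 5361 in control and L-fuc at day 7, and 7786 and 5911 in control and L-fuc at day 21. The tumor gate held 33.6, 107, 49.4, 12.6 and 31.8 CPM in the same order. All 5 macrophage values were above all 5 tumor values, and the share of all genes that separate in this way was not counted. C1qb ranged from 3573 to 6281 CPM in the macrophage gate and from 12.7 to 95.2 in the tumor gate, and C1qc from 3134 to 5482 and from 9.77 to 78.1. Cells are not replicates, so gates were compared over the 5 libraries with edgeR's quasi-likelihood test on UMIs summed per gate and library, with the library as a block. C1qa was higher in macrophages than in the tumor gate by 7.71 on the log2 scale (SE 0.67, n = 5 libraries, adjusted p = 1.82e-06), C1qb by 7.61 (SE 0.64) and C1qc by 7.61 (SE 0.64). All 8 members passed an adjusted p of 0.05 in this direction, where 39.2% of the 12986 genes tested did (34.7% passed in the other direction), and the median of the members was 7.27 against 0.04 over all genes.

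**Figure D1:**
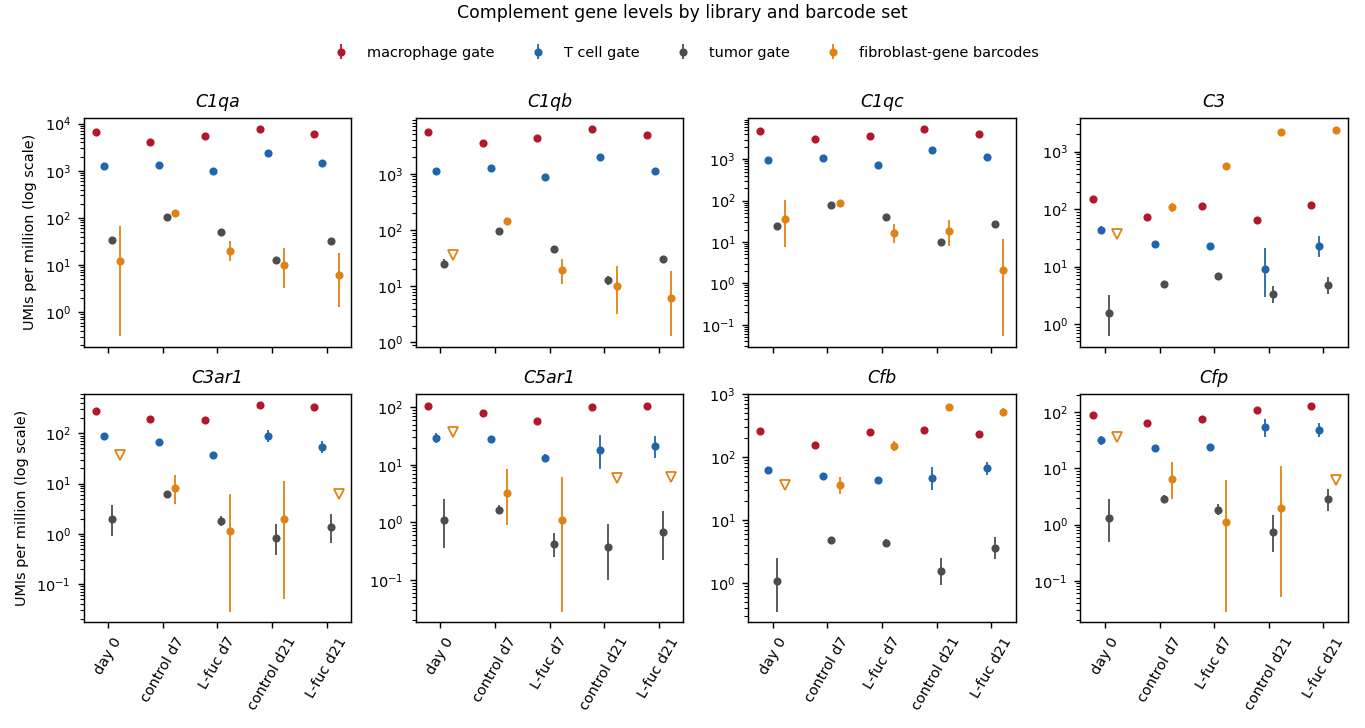
UMIs per 1000000 UMIs of the gate (log axis) for the 8 members in the macrophage, T cell and tumor gates of the 5 libraries. Points are library sums with exact Poisson 95% intervals, and a hollow triangle marks the 3-UMI floor where a gate had no UMI. In all 40 pairs of member and library the macrophage gate is highest and the tumor gate lowest.

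The T cell gate lay between the other gates. C1qa was at 1262, 1337, 981, 2362 and 1446 CPM there, in the order of libraries above. Most of these UMIs sat in the barcodes that also met the macrophage gate, which held 91.5%, 78.9%, 64.5%, 95.6% and 98.7% of the C1q UMIs of the T cell gate. Under strict gates C1qa was at 28.5, 323, 305, 151 and 13.2 CPM in T cells and at 7858, 5914, 7127, 8077 and 6146 in macrophages. The residue in strict T cells was largest in both day 7 libraries. C1qa was higher in macrophages than in T cells by 2.42 on the log2 scale (SE 0.52, adjusted p = 0.00495) and by 6.66 under strict gates. All 8 members were higher in macrophages than in T cells, where 19.8% of genes tested were (and 13.8% were lower), with a median of 2.37 against -0.04 over all genes. All 8 were lower in the tumor gate than in the T cell gate, where 34.5% of genes were (and 30.9% were higher), with a median of -4.84 against -0.03. The order of macrophage over T cell over tumor gate held in 40 of 40 pairs of member and library in the main gates. How often this order holds over all genes was not counted. The counting intervals of T cell and tumor gate overlapped in 1 of these pairs, C3 in control day 21. Under strict gates T cells were not above the tumor gate in every pair. In L-fuc day 21 C1qa, C1qb and C1qc were at 13.2, 3.30 and 19.8 CPM in strict T cells. The strict tumor gate held 9.42, 5.03 and 5.03 there, and these 6 values rest on 1 to 15 UMIs each. In the main gates, barcodes that met both the macrophage and the T cell gate enter the sums of both. These 2 sums are thus not independent in the comparison of macrophages with T cells.

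**Figure D2:**
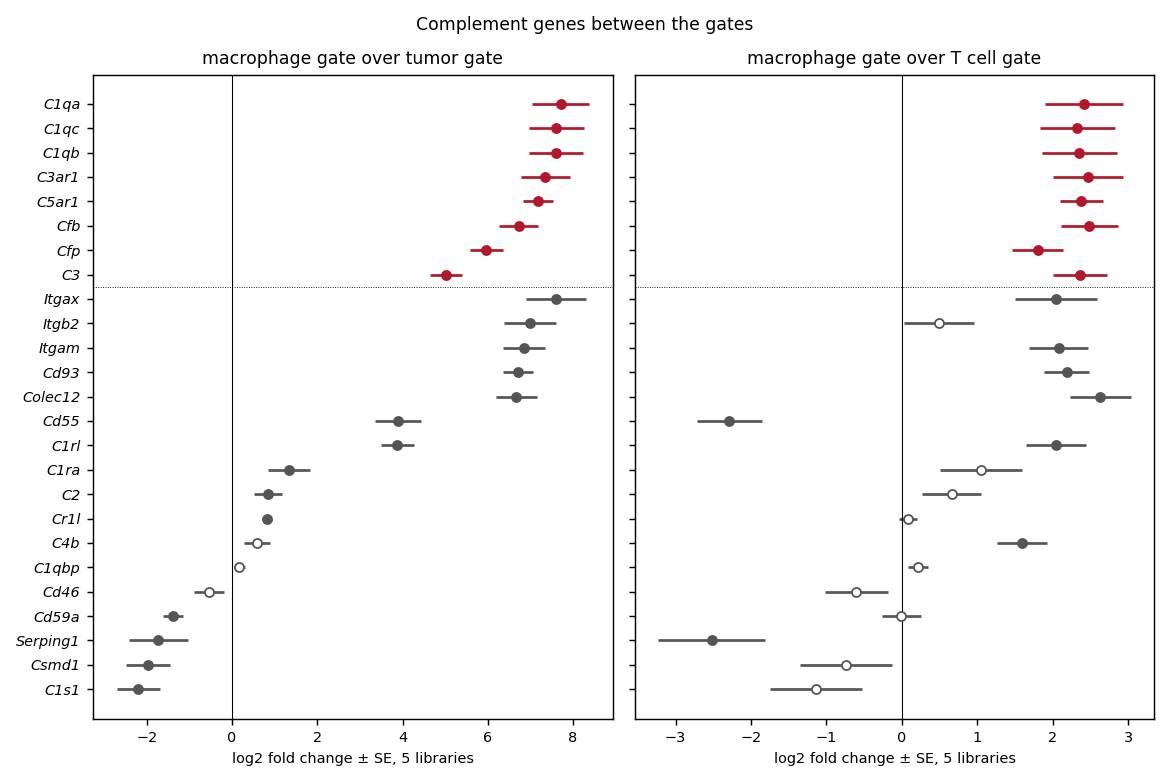
Log2 fold changes between gates with their standard errors for the 8 members (red) and, beyond the dotted line, other complement genes of the 18 tested, over 5 libraries. Filled points passed an adjusted p of 0.05 in edgeR's quasi-likelihood test. All 8 members are filled and above 0 in both panels, macrophage gate over tumor gate and over T cell gate.

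The 3 C1q chains kept nearly fixed proportions. In the macrophage gate there were 0.842, 0.859, 0.806, 0.807 and 0.811 C1qb UMIs per C1qa UMI and 0.739, 0.754, 0.685, 0.704 and 0.705 C1qc UMIs per C1qa UMI. The spread between libraries was wider than the counting intervals, such as 0.846 to 0.872 in control day 7 and 0.797 to 0.816 in L-fuc day 7. In the strict T cell gate there were 1.04 C1qb UMIs per C1qa UMI in control day 7 (95% interval 0.918 to 1.18) and 1.01 in L-fuc day 7 (0.945 to 1.07), above the 0.827 (0.806 to 0.848) and 0.797 (0.785 to 0.809) of the strict macrophage gate. In control day 21 the strict T cell ratio was 0.816, within counting error of the 0.802 in strict macrophages. The chains also went together from barcode to barcode. Correlations were taken over the 279, 949, 788, 349 and 264 macrophage gate barcodes with at least 1000 UMIs. The Spearman correlation of C1qa with C1qb was 0.821, 0.694, 0.804, 0.638 and 0.694. That of C1qa ran from 0.151 to 0.264 with Cfb, from 0.113 to 0.234 with C3ar1 and from -0.093 to 0.089 with C3. C3 was the sparser gene, with a UMI in 4.87% to 12.9% of barcodes thinned to 1000 UMIs, against 15.3% to 22.3% for Cfb. These correlations describe barcodes of 1 library each, which came from the same pool and are not replicates.

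Not every macrophage gate barcode carried C1q. In a gate's sum fewer C1q-carrying barcodes and fewer C1q UMIs per barcode cannot be told apart, so barcodes were also read singly. The median of the 3 chains together was 15605 CPM per barcode at day 0, 10034 and 10367 at day 7, and 18749 and 12249 at day 21. Barcodes with no C1q UMI made up 11.1%, 2.0%, 6.46%, 2.85% and 4.17% of the gate. To set depths equal, each barcode was thinned to 1000 UMIs. All 3 chains were then seen in 69.2%, 67.5%, 63.6%, 86.8% and 76.1% of macrophage barcodes, in 10.6%, 16.6%, 12.1%, 13.6% and 14.3% of T cell barcodes and in 0.382%, 1.23%, 1.65%, 1.05% and 7.19% of tumor barcodes. Control day 21 had the largest share of macrophages with all 3 chains. Without thinning, the median depth of the macrophage gate ran from 7859 UMIs in control day 7 to 16585 in L-fuc day 21, and that of the T cell gate from 4615 to 10904.

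C3, Cfb and Cfp, the members of the alternative pathway, were also highest in the macrophage gate among the 3 gates. C3 was at 148, 73.1, 115, 63.5 and 118 CPM in macrophages and at 1.53, 5.00, 6.82, 3.35 and 4.74 in the tumor gate. Cfb was at 259, 157, 250.01, 269 and 229 in macrophages and at 1.09, 4.77, 4.38, 1.58 and 3.66 in the tumor gate. Cfp ranged from 64.1 to 130 in macrophages and from 0.745 to 2.90 in the tumor gate. For none of the 3 genes did the groups of 5 values overlap, and the share of all genes without overlap was not counted. Macrophages exceeded the tumor gate by 5.02 (SE 0.38, adjusted p = 7.55e-07) for C3, by 6.72 (SE 0.45) for Cfb and by 5.97 (SE 0.39) for Cfp, all on the log2 scale. Of the 8 estimates between these gates, that of C3 was the smallest. In T cells C3 was at 43.5, 24.8, 23.2, 8.98 and 23.1 CPM, and macrophages exceeded T cells by 2.36 (SE 0.36, adjusted p = 0.000886) for C3, by 2.49 (SE 0.37) for Cfb and by 1.80 (SE 0.33) for Cfp. After thinning to 1000 UMIs, 4.87% to 12.9% of macrophage barcodes had a C3 UMI, 15.3% to 22.3% a Cfb UMI and 6.22% to 11.7% a Cfp UMI. In the tumor gate none of the 3 genes was seen in more than 1.63% of barcodes at that depth.

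The receptor genes C3ar1 and C5ar1 were likewise highest in macrophages among the 3 gates. C3ar1 was at 285, 194, 186, 368 and 327 CPM in the macrophage gate, 87.4, 66.0, 37.5, 89.8 and 52.9 in the T cell gate and 1.96, 6.12, 1.82, 0.838 and 1.35 in the tumor gate. C5ar1 was at 104, 78.8, 58.8, 99.6 and 105 in macrophages, 29.5, 27.7, 13.2, 18.0 and 21.2 in T cells and 1.09, 1.67, 0.419, 0.372 and 0.677 in the tumor gate. Neither gene overlapped between gates over the 5 libraries, again without a count of the share over all genes. Macrophages exceeded T cells by 2.46 (SE 0.46, adjusted p = 0.00268) for C3ar1 and by 2.38 (SE 0.29, adjusted p = 0.000276) for C5ar1. They exceeded the tumor gate by 7.35 (SE 0.58) and 7.18 (SE 0.35). Neutrophils are also known to carry C5aR1. In the 6, 41, 67, 18 and 7 barcodes with at least 10 UMIs of the neutrophil genes S100a8 and S100a9 and a Ptprc UMI, C5ar1 was at 66.8, 131, 111, 430 and 742 CPM. These few barcodes had C5ar1 above the macrophage gate in 4 of 5 libraries, day 0 being the exception, although the last value rests on 17 UMIs. Barcodes of the macrophage gate were not left out of them. C1qa was at 0, 2456, 1186, 1762 and 175 CPM in these barcodes, so they are not a clean neutrophil set.

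In the macrophage gate the order of the libraries differed between members. For each C1q chain it ran from control day 21 through day 0, L-fuc day 21 and L-fuc day 7 down to control day 7, and no neighbours had overlapping counting intervals. Under strict gates the order changed, with L-fuc day 7 above L-fuc day 21 for each chain, and with day 0 above control day 21 for C1qb (6561 against 6478 CPM) and C1qc (5750.1 against 5620.2). C3 was highest at day 0. Its levels in L-fuc day 21 and L-fuc day 7 did not differ beyond counting error, nor did those in control day 7 and control day 21. Cfb was lowest in control day 7, and each neighbouring pair among its other 4 libraries overlapped. C5ar1 overlapped between L-fuc day 21, day 0 and control day 21, and was lowest in L-fuc day 7. These intervals cover counting error only and not the spread between mice.

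The macrophage gate did not hold all of these transcripts. It held 58.8% to 89.0% of the C1qa UMIs of kept barcodes, 54.9% to 84.1% of the Cfb UMIs and 23.0% to 75.8% of the C3 UMIs. At day 21 most of the remaining C3 lay in barcodes with at least 3 UMIs of the fibroblast genes Dcn, Lum, Pdgfra and Pdgfrb and neither a Ptprc nor a Sox10 UMI. There were 4, 177, 50, 21 and 12 such barcodes, and they held C3 at 0, 108, 556, 2176 and 2372 CPM. In control day 21 they were 21 of 1573 kept barcodes and held 70.1% of all C3 UMIs, and in L-fuc day 21 12 barcodes held 60.3%. Fibroblasts are a known site of C3 synthesis. The count rests on few cells, since in the libraries with C3 in these barcodes a single barcode carried 20.7% to 35.9% of it. At day 0, 0 C3 UMIs among 4 barcodes allow up to 36.6 CPM.

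**Figure D3:**
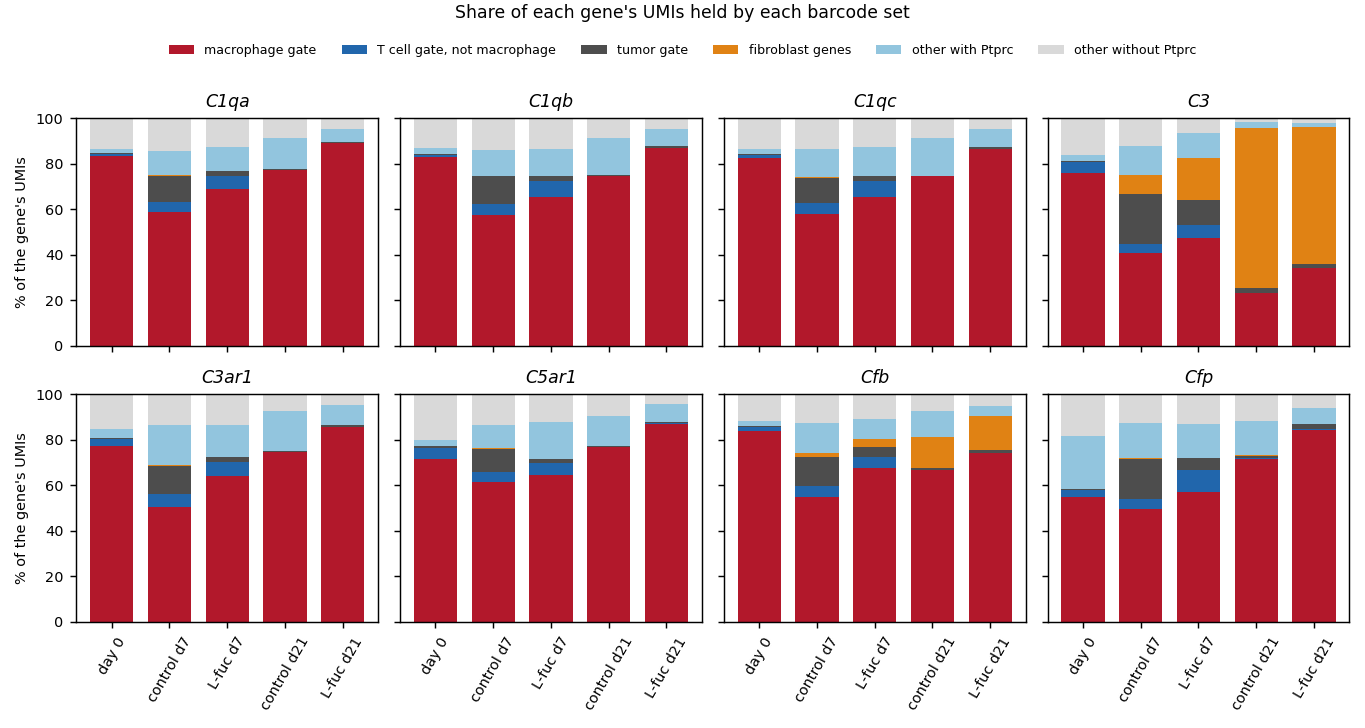
Percent of the UMIs of each member in kept barcodes (vertical axis) by place, stacked for each of the 5 libraries. Places are the macrophage gate, T cell gate barcodes outside it, the tumor gate, barcodes with fibroblast genes, and other barcodes with or without Ptprc. Barcodes with fibroblast genes hold most C3 UMIs at day 21, 70.1% in control and 60.3% in L-fuc, and almost no C1qa UMIs.

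Other complement genes were also high in the same fibroblast-gene barcodes at day 21. Cfb was at 0, 36.0, 149, 620.0 and 521 CPM there. C1ra, the gene of the C1r protease that C1q activates, was at 12.2, 20.5, 188, 832 and 634, and C1s1, of the C1s protease, at 0, 29.5, 203, 508 and 657. Serping1, which encodes the inhibitor of both proteases, was at 73.1, 229, 1380.4, 3462 and 2715. At day 21 these 5 genes, C3 included, were all above their macrophage gate level. C1q itself was low, with C1qa at 12.2, 125, 20.2, 10.0 and 6.28 CPM. C1q chains were thus scarce in the barcodes where the genes of the proteases they engage were high. The fibroblast-gene barcodes were defined after earlier results were known, and no test was made on them.

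Of 48 other complement genes listed, 26 had at least 30 UMIs in the macrophage or the tumor gate, 10 had none in either, and 18 were tested. In macrophages against T cells 7 of 18 were higher and 2 lower, where 19.8% and 13.8% of all genes tested were. Among the higher were Colec12, a scavenger collectin (2.63 on the log2 scale, SE 0.40), Cd93 (2.18, SE 0.30), the complement receptor integrin chains Itgam (2.08, SE 0.39) and Itgax (2.05, SE 0.55), C1rl (2.04, SE 0.40) and C4b (1.59, SE 0.33). Lower were the decay-accelerating factor gene Cd55 (-2.29, SE 0.43) and Serping1 (-2.52, SE 0.71). In macrophages against the tumor gate 11 of 18 were higher and 4 lower, where 39.2% and 34.7% of all genes tested were. The tumor gate was higher for Cd59a, an inhibitor of the membrane attack complex (-1.39 for macrophages against tumor, SE 0.23), Serping1 (-1.73, SE 0.69), C1s1 (-2.20, SE 0.51) and Csmd1 (-1.97, SE 0.51). Against T cells the tumor gate was higher for 2 of 18, Cd59a (1.39, SE 0.25) and C4b (1.01, SE 0.33), and lower for 8. Over all genes tested 30.9% were higher and 34.5% lower in that comparison. The medians over these 18 genes were 0.58, 1.09 and -0.51 in the 3 comparisons, well short of those of the 8 members. C4b, Cd59a and C1s1 have related copies (C4a, Cd59b and C1s2), and how far reads told the copies apart was not tested.

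Several complement genes outside the 8 members were also counted in the tumor gate. C4b, of the component that C1s cleaves, was at 14.0, 29.0, 70.2, 46.4 and 40.3 CPM in it, and Cd59a at 44.5, 45.4, 43.6, 42.8 and 30.2. C4b was not called between macrophages and tumor (0.59 for macrophages against tumor, SE 0.30, adjusted p = 0.0964 in edgeR). C1qbp and Cr1l had 22424 and 4929 UMIs in the tumor gate over the 5 libraries, against 5977 for C4b and 6048 for Cd59a. For macrophages against tumor their estimates were 0.17 and 0.81. C1ra was at 0.437, 1.15, 4.28, 14.4 and 12.3, and C1s1 at 1.09, 1.38, 7.42, 14.1 and 13.9. Cd59a stayed between 42.8 and 45.4 in 4 libraries, and C1ra and C1s1 were highest at day 21. Under strict gates both genes were at 5.88 in control and 3.14 in L-fuc at day 21, on 9 and 5 UMIs each, and C1s1 in L-fuc day 7 was at 4.43, so that C1s1 in L-fuc day 21 was no longer above it. In barcodes of the tumor gate with at least 2 UMIs of the cycling genes Mki67 and Top2a, Cd59a was at 0.452 to 0.577 of its level in barcodes without them, in 5 of 5 libraries, and C4b at 0.626 to 0.900. The cycling barcodes were deeper, for example with a median of 33736 against 18456 UMIs in L-fuc day 21. Whether depth plays a part in these ratios was not tested. In the main gates all 8 members were below the T cell background in this gate. Of the C1q UMIs in that background, 64.5% to 98.7% lay in barcodes that also met the macrophage gate. Under strict gates the order did not hold in every pair of member and library. C3 in control day 21 was at 5.88 CPM in the tumor gate and 3.96 in T cells, on 9 UMIs and 1 UMI. C1qb in L-fuc day 21 was at 5.03 and 3.30, on 8 UMIs and 1 UMI. In the strict tumor gate C1qa was at 3.11, 61.3, 9.02, 3.27 and 9.42 CPM, so the control day 7 library kept a residue. Fibroblast markers summed to 307 to 550 CPM in the tumor gate and 4.6 to 126 in the macrophage gate, against 4791 to 44115 in the fibroblast-gene barcodes. Their part in the tumor gate values of C1ra, C1s1 and C3 was not tested.

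Within the macrophage gate the members followed different subsets, which were split by genes chosen with earlier results known. In barcodes with at least 2 UMIs of the monocyte genes Ly6c2 and Plac8, C1qa was at 1949.9, 2235, 2185, 2893 and 3009 CPM, against 8601, 4837, 6867, 8171 and 7114 in barcodes with neither. All 5 libraries had less C1qa in the monocyte-gene barcodes, by a ratio of 0.227 to 0.462 (0.287 to 0.463 under strict gates). C3ar1 was also lower in all 5, at 0.365 to 0.552 of the other level, and Cfb at 0.492 to 0.875. Cfp went the other way in 4 of 5 libraries, with ratios of 0.970 to 1.97, and in 5 of 5 under strict gates (1.08 to 2.20). Cx3cr1, the fractalkine receptor gene of monocyte-derived macrophages, marked the opposite side. With a Cx3cr1 UMI, C1qa was at 8437, 5073, 6792, 8561 and 6504 CPM, against 2267, 2551, 2419, 4372 and 2580.3 without. The ratio was 1.96 to 3.72 over 5 of 5 libraries and 1.97 to 2.80 under strict gates. Cfb (1.21 to 2.38) and C3ar1 (1.33 to 1.92) were likewise higher with Cx3cr1 in 5 of 5 libraries. Barcodes with Cx3cr1 were deeper, for example with a median of 17334 against 8634 UMIs at day 0. The part of depth in these ratios was not tested.

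C5ar1 was higher in only 1 of 5 libraries with Ly6c2 and Plac8 (ratios of 0.551 to 1.19) and in 1 of 5 with Cx3cr1 (0.609 to 1.11). Under strict gates it was lower with Cx3cr1 in 5 of 5 (0.569 to 0.95). It followed Arg1, the arginase gene of suppressive myeloid cells. In barcodes with at least 3 Arg1 UMIs, C5ar1 was at 154, 125, 108, 194 and 133 CPM, against 71.2, 62.2, 47.3, 86.5 and 89.5 in barcodes with none. It was higher in 5 of 5 libraries, by 1.49 to 2.29 (1.36 to 2.56 under strict gates), whereas the C1q chains were lower in 5 of 5 (C1qa 0.553 to 0.898). C5ar1 was also higher in 5 of 5 libraries in barcodes with at least 3 UMIs of the inflammatory genes Il1a, Cxcl1 and Tnf against those with none, by 1.13 to 2.50. C3 did not keep 1 direction over all 5 libraries in any of these splits. It was higher in 1 of 5 libraries with Ly6c2 and Plac8 and in 4 of 5 with Cx3cr1. With Arg1 and with the inflammatory genes it was higher in 3 of 5 each. Barcodes with Arg1 or with the inflammatory genes were also deeper than those without. At day 0 the medians were 20040 against 13637 UMIs for Arg1 and 18375 against 9887 for the inflammatory genes. In L-fuc day 21 the latter were 24676 against 2677. The part of depth in these splits was not tested either.

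**Figure D4:**
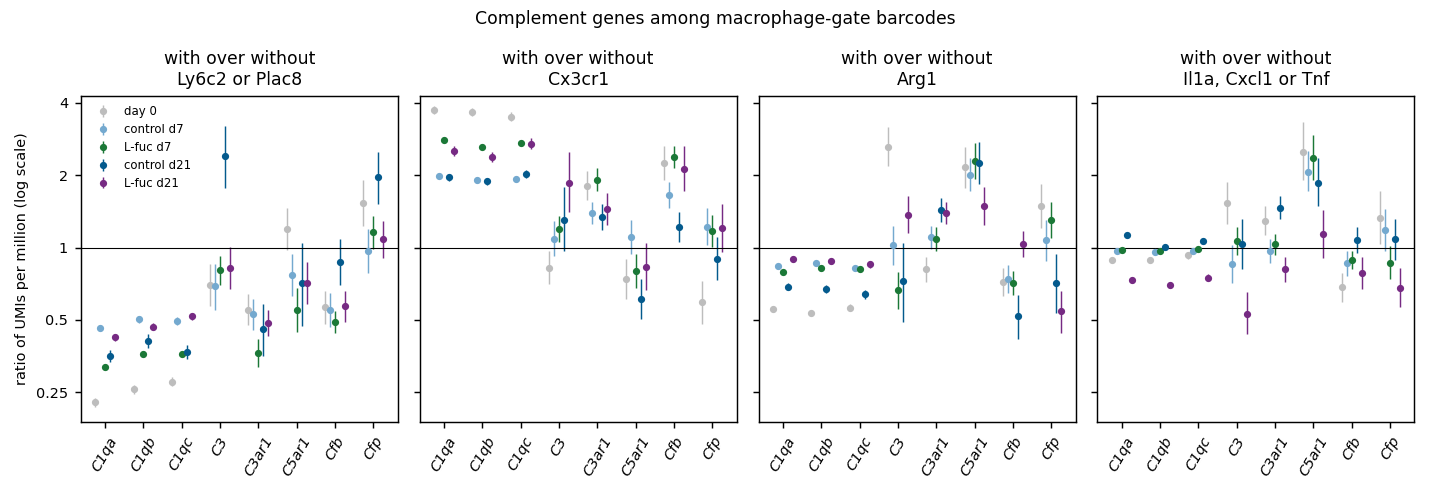
Ratio of each member's level (log axis) between macrophage gate barcodes with and without Ly6c2 and Plac8, Cx3cr1, Arg1, or Il1a, Cxcl1 and Tnf, 1 point per library. C1qa is below 1 in all 5 libraries for Ly6c2 and Plac8 and above 1 in all 5 for Cx3cr1, and C5ar1 is above 1 in all 5 for Arg1.

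At each day L-fuc water was read as 1 library against 1, with no test, and a difference between libraries cannot be told apart from one between pools of mice. At day 7 C1qa was higher with L-fuc in the macrophage gate, at 5361 against 4159 CPM, a ratio of 1.29 (95% counting interval 1.27 to 1.31). The ratio was 1.21 for C1qb, 1.17 for C1qc, 1.57 (1.43 to 1.73) for C3, 1.59 (1.49 to 1.70) for Cfb, 1.18 for Cfp, 0.957 for C3ar1 and 0.746 (0.669 to 0.832) for C5ar1. The 2 largest ratios belonged to C3 and Cfb, and C5ar1 was the lowest. No member reached 2-fold, where 1.59% of genes with at least 30 UMIs were at least 2-fold higher and 6.97% at least 2-fold lower, with a median log2 ratio of -0.16 over all of them. Under strict gates the ratios were 1.21 for C1qa, 1.56 for C3, 1.46 for Cfb and 0.639 for C5ar1, but 0.951 for Cfp.

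At day 21 the C1q chains lay on the other side of control. C1qa was at 5911 with L-fuc and 7786 in control, a ratio of 0.759 (0.748 to 0.770), with 0.763 for C1qb and 0.760 for C1qc. C3 was at 118 against 63.5, a ratio of 1.86 (1.63 to 2.12), and was above control as at day 7. Cfb was at 0.850 (0.788 to 0.917) of control, C3ar1 at 0.889, C5ar1 at 1.06 and Cfp at 1.19. No member reached 2-fold, against 3.55% of genes higher and 0.815% lower, and under strict gates 1 did, C3 at 2.06 (1.79 to 2.37). Monocyte-gene barcodes, which had less C1qa in all 5 libraries, were 47 of 264 macrophage gate barcodes with L-fuc and 24 of 351 in control at day 21. At day 7 they were 206 of 789 and 165 of 949. Under strict gates the counts were 39 of 227 and 21 of 321 at day 21 and 88 of 469 and 36 of 363 at day 7. Ly6c2 was at 62.8 to 253 CPM in the macrophage gate and 43.1 to 270 in the T cell gate. Plac8 was at 29.5 to 185 and 80.8 to 162. The part of T cell transcripts in the main counts was not tested. Among day 21 barcodes without those genes C1qa was at 7114 with L-fuc against 8171 in control. The split needs at least 2 UMIs and so depends on depth. Median depth with L-fuc and in control was 12072 and 7859 UMIs at day 7 and 16585 and 14484 at day 21. The part of monocyte-gene barcodes and of depth in the L-fuc ratios was not tested.

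**Figure D5:**
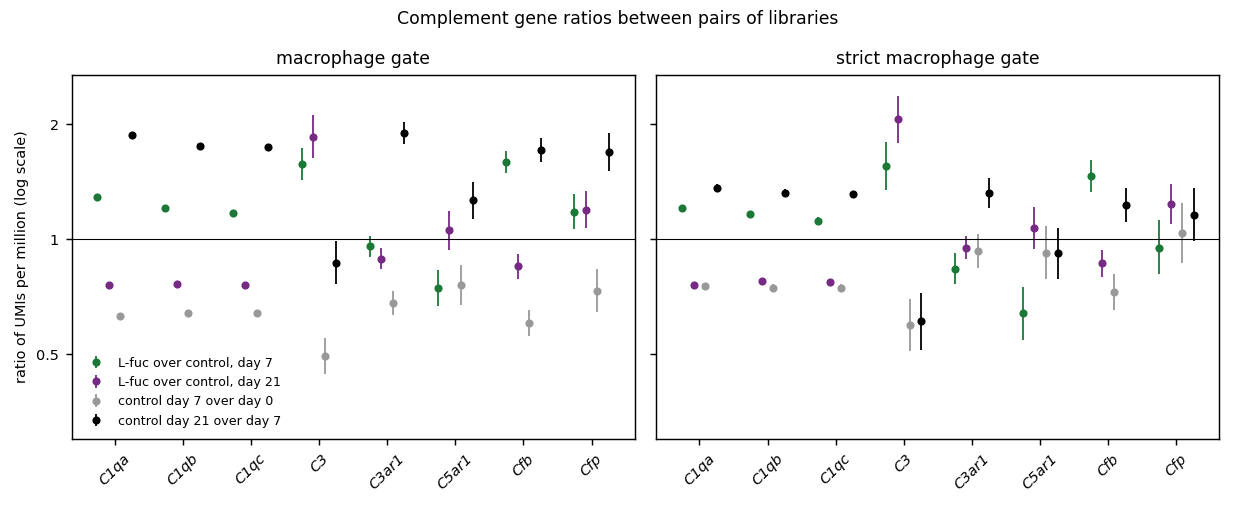
Ratio of CPM values (log axis) between pairs of libraries for the 8 members in the macrophage gate and the strict macrophage gate, with exact 95% counting intervals. The C1q chains are above 1 at day 7 and below 1 at day 21 for L-fuc over control, while C3 is above 1 at both.

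The 2 days were also read together in edgeR's quasi-likelihood test with day and treatment as terms, over 4 libraries with 1 residual degree of freedom, a fit added after seeing the data. In the macrophage gate 0 of 8 members passed an adjusted p of 0.05, where 0.0741% of 12151 genes passed as higher and 0 as lower. At an unadjusted p of 0.05, 324 of the 12151 genes passed, among them 1 member. That member was C3, 0.84 higher with L-fuc on the log2 scale (SE 0.19, adjusted p = 0.807 in edgeR). Under strict gates C3 passed, at 0.91 (SE 0.23, adjusted p = 0.024 in edgeR), where 0.603% of genes passed as higher and 0.334% as lower, so the call of C3 depends on the gate. The C1q chains, on opposite sides of control at the 2 days, had estimates of -0.01 to 0.06 (SE 0.36 to 0.38). In the tumor gate edgeR called 0 of 8 members, where 0.00738% of 13557 genes passed as lower and 0 as higher. At an unadjusted p of 0.05, 447 genes and 0 members passed. Under strict gates 0 of 6 members tested passed, where 0 of 11368 genes passed in either direction. At an unadjusted p of 0.05, 564 genes passed, among them 3 members. These were the C1q chains, with estimates of -2.19 to -2.31 on the log2 scale. Taken by day, the strict ratios of L-fuc over control for C1qa, C1qb and C1qc were 0.147, 0.179 and 0.161 at day 7. At day 21 they were 2.88, 0.769 and 0.641, on at most 15 UMIs per library.

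Over time in control water most macrophage gate levels were lower at day 7 than at days 0 and 21. From day 0 to control day 7 all 8 ratios were below 1, from 0.494 (0.443 to 0.551) for C3 to 0.758 for C5ar1, with C1qa at 0.629. C3 was the 1 member at least 2-fold lower, where 2.27% of genes were and 19.3% were at least 2-fold higher, and the median log2 ratio over all genes was 0.30. From control day 7 to control day 21 C1qa had a ratio of 1.87, C3ar1 of 1.90 and C3 of 0.869, and no member reached 2-fold, where 3.41% of genes were higher and 15.2% lower. Under strict gates C1qa was at 0.753 and then 1.37, and C3 at 0.597 and then 0.610, so that for C3 the second ratio was farther from 1. Cfp turned to 1.04 for day 7 over day 0 under strict gates, on 218 and 283 UMIs, and C5ar1 to 0.918 for day 21 over day 7. The control day 7 gate was the shallowest and had the largest overlap with the T cell gate, 28.6%.

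In the tumor gate 3.4%, 25.4%, 8.87%, 5.38% and 20.6% of barcodes had a Lyz2 UMI. C1qa at day 0 was at 33.6 CPM, above both day 21 libraries, and at 3.11 under strict gates. Its 154 UMIs in the main gate at day 0 lay in 11 of 265 barcodes. C3 was highest in L-fuc day 7 (6.82). At day 7 C1qa was at 49.4 with L-fuc against 107 in control (ratio 0.464), and 4 of 8 members were at least 2-fold lower, where 3.81% of genes were and 1.51% were higher. At day 21 C1qa was at 31.8 against 12.6 (ratio 2.53), and 4 of the 5 members with at least 30 UMIs were at least 2-fold higher, where 1.85% of genes were and 0.713% were lower. From day 0 to control day 7 6 of 8 members were at least 2-fold higher, where 11.1% of genes were (2.69% were lower), and from control day 7 to control day 21 7 of 8 were at least 2-fold lower, where 7.24% were (5.65% were higher). The strict tumor gate had few UMIs at day 21, with 15 of C1qa with L-fuc and 5 in control, but 8 and 10 of C1qb (ratio 0.769) and 8 and 12 of C1qc (0.641), which turned from 2.42 and 2.77. The part of macrophage transcripts in these values was not tested.

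For each member the genes with the most similar pattern were sought by the Pearson correlation of log2 levels over the 15 sums of 3 gates and 5 libraries, among 12989 genes. For the C1q chains they were each other (0.9995 to 0.9998), then Ly86 (0.996 with C1qa) or the signalling adaptor gene Tyrobp (0.997 with C1qb). The 3 most similar genes were Gda (0.993), Cyp4f18 and Ccl12 for C3, Scimp (0.995), H2-M2 and Ets2 for Cfb, and Tlr7 (0.995), Dok3 and Evi2a for Cfp. For C3ar1 they included Sirpa (0.995) and Cndp2, and for C5ar1 they were Slc16a10 (0.993), Slc7a8 and Stab1. The 15 sums share libraries, and these correlations mainly describe the difference between gates.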

How the data were processed

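Cells from 5 pools of SW1 tumors were sequenced with the 10x Genomics system. The authors deposited UMI counts for each gene and barcode, not normalized, from Cell Ranger, version 7.1.0 per the file headers and 3.0 in the submitters' processing notes, which also name Seurat 4.0 and mm10. Barcodes are those that Cell Ranger called as cells. Whether intronic reads were counted was not given in the sources used here. The 5 T cell receptor libraries were not used.

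Barcodes were gated as described, with no doublet caller, and counts were summed per gate and library and scaled to UMIs per 1000000 (CPM). Levels carry exact Poisson 95% intervals and shares exact binomial ones, which cover counting error only. Gates were compared with edgeR 4.0.16 in R 4.3.3 (quasi-likelihood, TMM, filterByExpr, Benjamini-Hochberg over all genes tested) with gate and library as terms and the gating genes left out. L-fuc and control were also compared over days 7 and 21 together in the same way, with day and treatment as terms. Both fits were tested on simulated data. Library ratios were taken over genes with at least 30 UMIs, with a pseudocount of 1 UMI for the log2 ratio. The 4 motifs were searched in all RefSeq promoters. DESeq2 1.42.0, Python 3.11.15, numpy 2.4.6, scipy 1.17.1 and pandas 2.3.3 were also used. The members, gene lists and subsets were chosen with earlier results of these data known. All members were named, other complement genes where they had at least 30 UMIs in the macrophage or tumor gate, and the 3 most correlated of the genes with at least 200 UMIs (log2 with 10 CPM added). Values of some other genes are not reported here.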

Additional observations from a re-analysis of the deposited data

Results flagged for a closer look

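In the macrophage gate 4 members had ratios of L-fuc over control on opposite sides of 1 at days 7 and 21, which drew attention to them. The ratios were 1.29 and 0.759 for C1qa, 1.21 and 0.763 for C1qb, 1.17 and 0.760 for C1qc, and 1.59 and 0.850 for Cfb. For Cfb the day 21 log2 ratio turned from -0.23 to 0.07 with the deepest 5% of barcodes left out, so that both days then lay on the same side. The difference between the days was not tested.

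In the tumor gate 3 members had opposite ratios, in the reverse order. They were 0.464 at day 7 and 2.53 at day 21 for C1qa, 0.480 and 2.42 for C1qb, and 0.503 and 2.77 for C1qc. Under strict gates the day 21 ratios of C1qb and C1qc were 0.769 and 0.641, on the same side as day 7. This difference was not tested either. The share of tumor gate barcodes with a Lyz2 UMI was 8.87% with L-fuc and 25.4% in control at day 7, and 20.6% and 5.38% at day 21.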

How the results depend on the processing

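The alternatives were looser barcode filters, stricter gates, removal of the deepest 5% of barcodes, of shared barcodes or of bulky genes, thinning, other tests and scalings, and leaving out libraries (both day 7 libraries together was added after seeing the data). All 8 members passed the test in the same direction in the 3 gate comparisons under every alternative run, and all 456 of their log2 fold changes kept direction and side. The highest adjusted p was 0.0306, for C1qa in macrophages against T cells without L-fuc day 7. The library served as the replicate block. With no replicate block C1qa differed by 2.39, 7.58 and -5.197 in macrophages against T cells, macrophages against tumor and tumor against T cells, and no call of a member changed.

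Counts over all genes moved more. Macrophages against T cells had 2568 genes higher and 1789 lower, which became 1157 and 691 when thinned, 1545 and 4493 with library totals only, 1679 to 2554 and 1033 to 1716 leaving out 1 library (both lowest without L-fuc day 7), and 1147 lower without both day 7 libraries. Against the tumor gate 5093 and 4506 became 2125 and 1807 when thinned and 3157 and 7627 with library totals only. For tumor against T cells 4014 and 4474 became 1735 and 1937 when thinned.

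Counts of members past 2-fold were less steady. For L-fuc at day 7 in the tumor gate, 0 higher became 1 with strict gates or without the deepest 5%, and 4 lower became 2 without the deepest 5%, 1 thinned and 0 with a pseudocount of 10 CPM. For L-fuc at day 21 in macrophages, 0 higher became 1 with strict gates, without the deepest 5% or thinned. In the tumor gate 4 higher became 0 with at least 2 Sox10 UMIs or with the larger pseudocount. The log2 ratios of C1qa and C1qb reversed from 1.34 and 1.27 to -0.23 and -0.25 with at least 2 Sox10 UMIs. Under strict gates no member had the 30 UMIs needed to be counted, so the count of 0 there was set by that filter. The strict ratios of C1qa, C1qb and C1qc were 2.88, 0.769 and 0.641. For control day 7 against day 0, 1 lower in macrophages became 0 without bulky genes, with at least 10 Lyz2 UMIs, strict gates, the deepest 5% left out, thinning or the larger pseudocount. In the tumor gate 0 lower became 1 when thinned and 6 higher became 3 with the larger pseudocount. For control day 21 against control day 7, 7 lower in the tumor gate became 4 with strict gates, 2 thinned and 3 with the larger pseudocount. With strict gates C5ar1 (1 and 7 UMIs) and Cfb (1 and 26 UMIs) fell under 30 UMIs and so were not counted. Thinning and strict gates leave fewer UMIs, and members under 30 UMIs in the 2 libraries together were not counted. Otherwise the cause was not tested. The L-fuc ratios of the tumor gate thus depend on the gate, whereas the macrophage gate was highest for all 40 pairs of member and library under the 9 alternatives run. In the fit over both days, 0 members called in macrophages became 1, C3, with strict gates. Low counts of some members limit the tumor gate, where C5ar1 had 4 to 121 UMIs per library.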
